A study of Mus musculus with 13 samples.

Results

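The genes described here encode the nuclear subunits of the mitochondrial respiratory chain, taken complex by complex. Members were all array probes whose gene symbol has the stem of a subunit name (Nduf with a subunit letter and number, Ndufab1, Sdha to Sdhd, Uqcr, Cox4 to Cox8 with a letter, or Atp5), with assembly factors left out. The rule used names only and no measured value. It found 97 of 25697 probes and 78 of 16593 genes, of which 34 belonged to complex I, 3 to complex II, 8 to complex III, 17 to complex IV and 16 to complex V. Ndufa4 was counted with complex IV, where its protein is now placed, and the complex I genes include the pseudogene Ndufs5-ps.

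The respiratory chain passes electrons from NADH through complex I, or from succinate through complex II, to ubiquinone, then through complex III and cytochrome c to complex IV, which reduces oxygen. Complexes I, III and IV pump protons out of the matrix, and complex V, the ATP synthase, uses their return to make ATP. Most subunits are encoded in the nucleus, the rest in mitochondrial DNA, and complex II is wholly nuclear. Mammalian oocytes carry a large store of mitochondria, and mouse embryos depend more on glucose and consume more oxygen as they form a blastocyst.

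The study asked which transcripts an oocyte can induce in a somatic or a sperm nucleus when the DNA is not replicated. Mouse embryos had been made by fertilization or by somatic cell nuclear transfer (SCNT), in which an enucleated oocyte receives the nucleus of a cumulus cell, one of the somatic cells around the oocyte. They were cultured without aphidicolin (Aph-) or with it (Aph+), an inhibitor of replicative DNA polymerases given from the pronuclear stage, so that Aph+ embryos stayed at the 1-cell stage. Pools were hybridized to 13 Illumina mouse arrays: 3 fertilized Aph-, 3 fertilized Aph+, 3 SCNT Aph-, 1 SCNT Aph+, 2 of cumulus cells and 1 of MII oocytes. The labels give the oocytes and cumulus cells as B6C3F1 and name no strain for the embryos, and the study's methods describe its embryos in general as C3H/HeN oocytes with C57Bl/6J sperm or cumulus nuclei, without naming the strain on these arrays. The titles of the fertilized arrays read IVF. The study's methods also speak of fertilization in vitro for these arrays, but the only protocol they give is sperm injection (ICSI). The embryo arrays of a group are separate label types, untimed (replicate 1), 96 h (replicate 2) and blastocyst (replicate 3), and the SCNT Aph+ array is labelled blastocyst. The study states that embryo pools were sampled at 96 h after activation, with 3 replicates, although SCNT Aph+ has 1 array here. It does not say whether the replicates were separate cultures, so p-values measure the spread between these arrays. Replicate 1 of the cumulus cells was much dimmer than replicate 2.

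The cell type in the labels is blastocyst for every embryo array, including the arrested embryos, although the label types above differ. The marker genes differed between the embryo groups. All 7 trophectoderm markers, among them Cdx2 and Krt8, were detected on each fertilized Aph- array and 6 to 7 on each SCNT Aph- array, against 3 to 4 on the fertilized Aph+ arrays and 4 on the SCNT Aph+ array. Of 9 oocyte markers, 8 were detected on the oocyte array, 6 to 8 on the fertilized Aph+ arrays, 6 on the SCNT Aph+ array and 2 to 4 on Aph- embryo arrays. Of 11 cumulus cell markers, 7 were detected on the SCNT Aph+ array and 7 to 8 on the cumulus cell arrays. Every other embryo array had 1 to 4, and the oocyte array had 4. Their mean normalized log2 intensity was 7.91 on the SCNT Aph+ array and 7.74 to 7.83 on the cumulus cell arrays. It was 4.57 to 5.83 on the other embryo arrays and 5.79 on the oocyte array. Over all genes, the SCNT Aph+ array correlated at 0.859 to 0.869 with the cumulus cell arrays and at 0.631 with the oocyte array. The Aph+ arrays were also the dimmest, with mean intensities of 89.8 to 129, against 145 to 465 on the other arrays. The part of these markers and of brightness in the Aph+ results was not tested.

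Probes for 68 of the 78 subunits were detected on at least 1 array, 31 of complex I, 3 of complex II, 6 of complex III, 14 of complex IV and 14 of complex V. Of these, 36 were detected on all 13 arrays. The 10 genes that were never detected were Ndufb7, Ndufb11, Ndufs1, Uqcrfs1, Uqcrq, Cox7b2, Cox8b, Cox8c, Atp5l and Atp5o, and nothing can be said of their levels. No probe carried the name Sdha, the flavoprotein of complex II. The oocyte array had signal for 39 of the 68 genes, the cumulus cell arrays for 62 to 65. Untreated arrays had it for 66 to 67 after fertilization and 65 to 66 after SCNT, and aphidicolin arrays for 57 to 60 and for 56. On the scale used here, the log2 of the background-corrected, quantile normalized intensity, the median of the 68 genes was 6.38 on the oocyte array, 8.67 to 8.74 in cumulus cells. It was 9.54 to 9.64 without aphidicolin after fertilization and 9.45 to 9.64 after SCNT, against 8.65 to 8.89 and 8.60 with it. Among all tested genes, these medians had a percentile of 56.7 on the oocyte array and of 80.7 to 89.1 on the others. The oocyte array was therefore the lowest, and the Aph- embryos the highest.

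**Figure D1:**
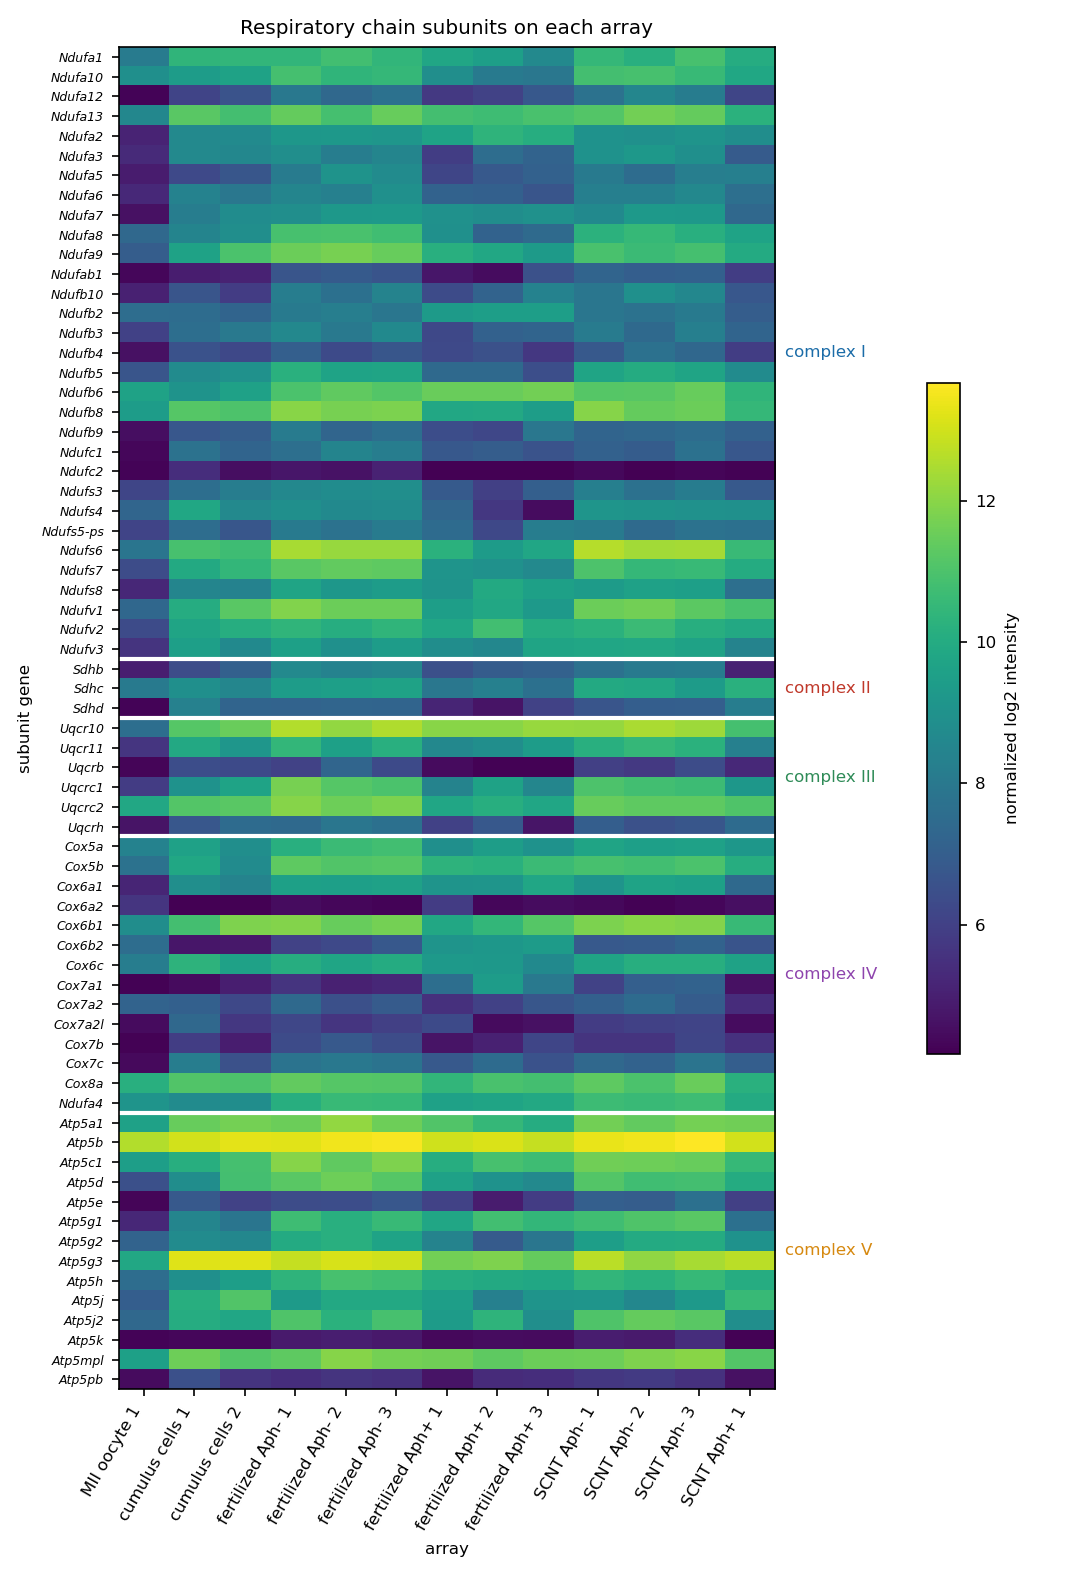
Normalized log2 intensity (colour) of the 68 detected respiratory chain subunits (rows, grouped by complex) on each of the 13 arrays (columns). The oocyte column is the darkest, with a member median of 6.38, and the Aph- embryo columns are the brightest, with medians of 9.45 to 9.64.

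Against the oocyte, untreated embryos had more transcript of most subunits relative to other genes, in all 5 complexes. In fertilized Aph- embryos 57 of 68 subunits were higher and 1 was lower, where 23% of all 9787 genes tested were higher and 20.6% lower (limma, a difference of 2-fold or more with an adjusted p under 0.05, here and for each comparison with the oocyte). The higher ones were 28 of 31 in complex I, 3 of 3 in complex II, 6 of 6 in complex III, 9 of 14 in complex IV and 11 of 14 in complex V. The median log2 difference was 2.73 over the members and 0.06 over all genes, and by complex it was 3.19 for complex I, 2.95 for II, 3.71 for III, 1.60 for IV and 2.47 for V. SCNT Aph- embryos had 58 higher and 1 lower, with 23.2% and 21% of all genes, and a member median of 2.68. With genes undetected in 1 group set to their smallest possible change, the medians were 2.40 and 2.01. The values are relative to the other transcripts of each array. Because pools are bulk samples, more cells of a type, more RNA per cell and a larger share of the RNA cannot be told apart. The oocyte was a single array, so its own spread was taken from the other groups.

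In complex I, Ndufs7, which holds the last iron-sulfur cluster before ubiquinone, had a log2 intensity of 6.40 on the oocyte array, 11.23, 11.39 and 11.30 on the fertilized Aph- arrays and 11.03, 10.49 and 10.56 on the SCNT Aph- arrays. All 6 embryo values lay more than 4 log2 units above the oocyte. The difference was 4.91 ± 0.32 (SE; adjusted p = 3.42e-06) after fertilization and 4.29 ± 0.32 (adjusted p = 6.39e-06) after SCNT. Ndufa9, an accessory subunit near the ubiquinone site, rose 24.0-fold in fertilized Aph- embryos, and Ndufs6, an accessory subunit of the NADH-oxidizing arm, rose 24.2-fold in SCNT Aph- embryos. Ndufa7, an accessory subunit of the same arm, was not detected in the oocyte and was at least 10.6-fold higher in SCNT Aph- embryos. Ndufb4, a membrane arm subunit chosen for its promoter, was undetected in the oocyte and at least 2.03-fold and 3.10-fold higher after fertilization and SCNT.

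The largest rise of complex III was that of Uqcrc1, a core protein on the matrix side. Its log2 intensity was 5.88 in the oocyte, 11.73, 11.16 and 10.98 in fertilized Aph- embryos and 11.03, 10.79 and 10.67 in SCNT Aph- embryos. The differences were 5.41 ± 0.51 (adjusted p = 2.34e-05) and 4.95 ± 0.51 (adjusted p = 3.9e-05). Uqcr10, a small membrane subunit, rose 27.7-fold and 25.7-fold. Uqcr11, another small subunit, was undetected in the oocyte and at least 21-fold and 24.6-fold higher.

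Complex IV was mixed. Cox6a1, the broadly expressed form of Cox6a, and Cox5b, which binds zinc, were among the risers. Cox6a1 was undetected in the oocyte and at least 15-fold higher in fertilized Aph- embryos, and Cox5b rose 10.9-fold. Cox7a2, the broadly expressed partner of Cox7a1, stood at 7.20 in the oocyte and at 7.41, 6.48 and 6.90 in fertilized Aph- embryos, a difference of -0.27 ± 0.53 (adjusted p = 0.755). Its values overlapped that of the oocyte. Cox8a differed by 1.06 ± 0.30 (adjusted p = 0.0152), and it lost the call with 75th percentile scaling (0.49), with the deposited log2 values (adjusted p = 0.0631) and without fertilized Aph- replicate 1 (0.98, under 2-fold). The only member that fell in fertilized Aph- embryos was Cox6b2, the testis-enriched form of Cox6b, from 7.57 to 6.05, 6.29 and 6.80 (difference -1.19 ± 0.32, adjusted p = 0.0116), and with 75th percentile scaling this did not pass (-0.89, adjusted p = 0.103). The only member called lower in SCNT Aph- embryos was Cox6a2, a heart and muscle form, which was not detected on any array of either group, so that it has no fold, and the call was lost without any 1 of 8 arrays (the 3 fertilized Aph-, the 3 SCNT Aph- or either cumulus cell array, adjusted p = 0.0654 to 0.0927).

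In complex V, the c subunits form the rotor ring of the ATP synthase, and Atp5g1, Atp5g2 and Atp5g3 encode the same mature protein. Atp5g1 was undetected in the oocyte (log2 intensity 5.23) and stood at 10.71, 10.16 and 10.57 in fertilized Aph- embryos and 10.77, 11.06 and 11.25 in SCNT Aph- embryos, at least 28.0-fold and at least 40.9-fold higher. Atp5g2 rose 6.71-fold and 6.22-fold, and Atp5g3 8.59-fold and 5.80-fold. Atp5d, of the central stalk, rose 28.5-fold and 21.3-fold. Atp5b, the catalytic subunit, was above 12 on all 13 arrays.

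Cumulus cells, the donors of the SCNT nuclei, also exceeded the oocyte. In them 46 subunits were higher and 2 lower, with 22% and 19.6% of all genes, and the median difference was 1.96 (1.64 with undetected genes at their bounds). The higher ones were 22 of 31 in complex I, 2 of 3 in II, 6 of 6 in III, 5 of 14 in IV and 11 of 14 in V. Atp5j, of the peripheral stalk of the ATP synthase, rose 12.2-fold and Atp5g3 10.1-fold. Cox6b2 was lower, at 4.77 and 4.81 against 7.57 (difference -2.78 ± 0.34, adjusted p = 0.000145), and the other one was again the undetected Cox6a2, which lost the call without any 1 of the same 8 arrays (adjusted p = 0.0641 to 0.109). In a fit of these 3 arrays alone, 29 subunits were called.

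**Figure D2:**
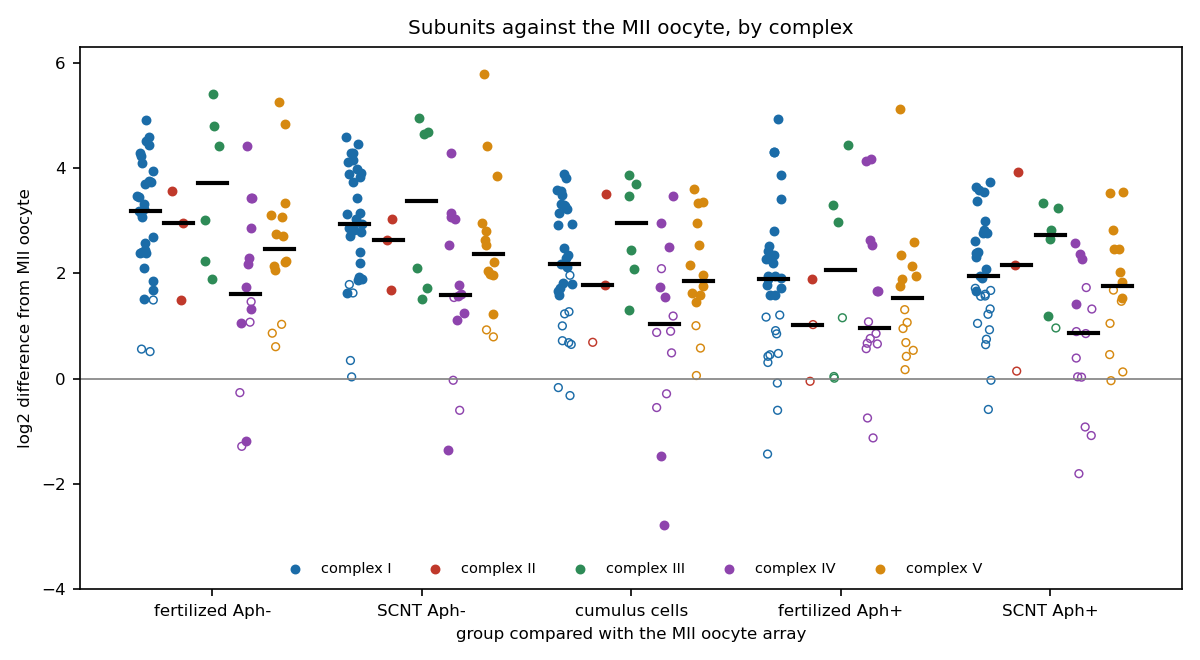
Log2 difference of each subunit (point, coloured by complex) from the single MII oocyte array, for the 5 other groups. Filled points were called, open points were not, and bars mark the median of each complex. In fertilized Aph- embryos the medians run from 1.60 (complex IV) to 3.71 (complex III).

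The promoters of some members are given as a description, and whether matches go with a rise was not tested. Of the 78 genes, 65 had a RefSeq promoter window (build GRCm38.p6) of 300 bases, 250 of them upstream of the start, and they had 70 windows. These were searched on both strands for the sites of NRF1 (GCGC, any base, then TGCGC), of ETS factors such as GABP (CCGGAAG) and of YY1 (AAGATGGC). An ETS match can share the letters AAG with a YY1 match that follows it. A match was found in 15, 16 and 10 of the 70 windows, or 21.4%, 22.9% and 14.3%, against 4.60%, 8.86% and 2.75% of all 32851 windows. At least 1 match was present in 34 of the 65 genes (52.3%), against 16.4% of all genes, 15 of 30 in complex I, 2 of 2 in II, 3 of 5 in III, 3 of 14 in IV and 11 of 14 in V. A match is a description of letters and not of a bound site. The 250 bases upstream of the start are printed 5′ to 3′, with matches in capitals. They are given for a gene of each complex that was higher in untreated embryos than in the oocyte. Each of these genes holds a match, though only 3 of 14 in complex IV do, so they do not represent their complexes. Also printed are Cox6b2 and Cox7a1, which were higher on the normalized scale with aphidicolin after fertilization and whose windows hold no match. Ndufa2 and Ndufb2, also higher with aphidicolin after fertilization, are not printed. Atp5j has a second window, with no match.
Ndufb4, chr16:37654369-37654618, minus strand: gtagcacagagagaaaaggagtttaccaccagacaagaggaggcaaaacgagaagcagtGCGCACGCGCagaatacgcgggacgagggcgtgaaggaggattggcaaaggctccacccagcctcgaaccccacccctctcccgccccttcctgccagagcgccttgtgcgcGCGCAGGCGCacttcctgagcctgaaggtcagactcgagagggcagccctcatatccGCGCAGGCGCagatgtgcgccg
Sdhd, chr9:50603850-50604099, minus strand: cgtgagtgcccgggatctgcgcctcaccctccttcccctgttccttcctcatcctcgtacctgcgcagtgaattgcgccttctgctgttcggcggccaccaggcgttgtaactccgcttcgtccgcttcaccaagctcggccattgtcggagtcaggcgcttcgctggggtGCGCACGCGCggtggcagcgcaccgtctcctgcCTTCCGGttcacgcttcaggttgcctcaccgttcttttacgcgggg
Uqcr11, chr10:80406822-80407071, minus strand: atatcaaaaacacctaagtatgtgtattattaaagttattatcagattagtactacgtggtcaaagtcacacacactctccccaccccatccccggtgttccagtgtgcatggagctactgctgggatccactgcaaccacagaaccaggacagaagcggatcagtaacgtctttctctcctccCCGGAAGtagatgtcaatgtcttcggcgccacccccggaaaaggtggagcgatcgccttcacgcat
Cox6a1, chr5:115348959-115349208, minus strand: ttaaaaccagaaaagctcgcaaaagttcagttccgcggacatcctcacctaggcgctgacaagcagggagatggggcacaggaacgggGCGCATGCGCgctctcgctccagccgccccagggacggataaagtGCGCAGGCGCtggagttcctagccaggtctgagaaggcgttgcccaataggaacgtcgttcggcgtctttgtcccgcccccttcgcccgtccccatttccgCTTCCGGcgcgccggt
Atp5j, chr16:84834977-84835226, minus strand: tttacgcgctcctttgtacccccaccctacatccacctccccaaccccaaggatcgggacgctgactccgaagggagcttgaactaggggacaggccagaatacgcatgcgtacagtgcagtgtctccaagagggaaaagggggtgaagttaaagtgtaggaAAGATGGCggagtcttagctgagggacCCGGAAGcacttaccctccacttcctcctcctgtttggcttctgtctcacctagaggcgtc
Cox6b2, chr7:4753095-4753344, minus strand: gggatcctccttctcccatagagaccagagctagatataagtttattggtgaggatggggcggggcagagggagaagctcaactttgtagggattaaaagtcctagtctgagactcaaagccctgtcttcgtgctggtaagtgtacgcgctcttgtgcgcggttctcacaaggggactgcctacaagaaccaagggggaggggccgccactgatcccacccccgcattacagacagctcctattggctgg
Cox7a1, chr7:30183921-30184170, plus strand: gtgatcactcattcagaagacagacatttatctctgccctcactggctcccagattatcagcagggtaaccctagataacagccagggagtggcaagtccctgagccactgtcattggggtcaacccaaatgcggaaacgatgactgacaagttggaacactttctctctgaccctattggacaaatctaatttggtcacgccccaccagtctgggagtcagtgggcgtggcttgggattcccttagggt

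Between untreated SCNT and fertilized embryos no subunit passed the test. By limma no member was called in either direction, where 0.163% of all genes were higher after SCNT and 0.398% lower, and at an unadjusted p under 0.05 2 of 68 members were higher and 6 lower, where 4.49% of all genes were higher and 5.06% lower. The median difference of SCNT from fertilized was -0.09, and the members ranged from -0.93 to 1.46. The top of that range was Cox7a1, the heart and muscle form of Cox7a, with 6.07, 7.04 and 7.15 after SCNT against 5.59, 5.05 and 5.25 after fertilization. The values did not overlap, and the difference of 1.46 ± 0.47 did not pass (adjusted p = 0.259). Sdhb, the iron-sulfur protein of complex II, differed by -0.54 ± 0.26 (adjusted p = 0.567). In a fit of these 6 arrays alone, 1 member was called lower.

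With aphidicolin, most subunits were lower than in untreated fertilized embryos, and a few were higher. Of 68, 39 were lower and 4 higher, where 25.1% of all genes were lower and 19.1% higher (adjusted p under 0.05, here and for each comparison between embryo groups). The median difference was -1.12 over the members (-1.01 with undetected genes at their bounds) and -0.03 over all genes. By complex the lower ones were 18 of 31 in complex I (median -1.48), 3 of 3 in II (-1.67), 5 of 6 in III (-1.85), 6 of 14 in IV (-0.80) and 7 of 14 in V (-0.83). The higher ones were Ndufa2 and Ndufb2 in complex I and Cox6b2 and Cox7a1 in complex IV. Under 75th percentile scaling 59 were lower and 3 higher, where 32.7% of all genes were lower and 38.8% higher.

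All 3 complex II genes on the array fell. Sdhb went from 8.65, 8.37 and 8.55 on the fertilized Aph- arrays to 6.49, 6.93 and 7.13 on the fertilized Aph+ arrays (difference -1.67 ± 0.26, adjusted p = 0.000589). Sdhc, a membrane anchor, went from 9.43, 9.55 and 9.66 to 7.95, 8.33 and 7.70 (-1.55 ± 0.24, adjusted p = 0.000569). In neither gene did the groups overlap. A second Sdhc probe was not detected, and of 2 further Sdhb probes 1 fell by 2.13 and 1, detected on 6 arrays, differed by 0.08. Sdhd, the other anchor, went from 7.19, 7.27 and 7.23 to values not detected on any Aph+ array (5.18, 4.69 and 6.04), at least 2.58-fold lower (adjusted p = 0.00234).

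In complex I the largest falls were those of Ndufa8 and Ndufs4, both accessory subunits, the latter added late in assembly. Ndufa8 stood at 10.91, 10.93 and 10.76 without aphidicolin and at 8.96, 7.18 and 7.46 with it, a 7.99-fold fall (adjusted p = 0.000278). Ndufs4 fell 7.60-fold (adjusted p = 0.00331), with Aph+ values of 7.33, 5.70 and 4.49 that spread widely. The 4 probes of Ndufs4 all moved the same way, by -1.81 to -2.93. In complex III Uqcrc1 fell 5.40-fold, and Uqcrb, which takes part in ubiquinone binding, was undetected with aphidicolin and at least 1.60-fold lower. In complex V Atp5d fell 4.69-fold.

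The c subunit genes had different outcomes, though the difference between genes was not tested. Atp5g2 fell 4.63-fold (adjusted p = 0.000716), from 9.97, 10.18 and 9.70 to 8.41, 6.92 and 7.89. Atp5g3 fell 2.53-fold (adjusted p = 0.000595), from 12.84, 13.10 and 12.99 to 11.65, 11.84 and 11.43. Atp5g1 stood at 10.71, 10.16 and 10.57 without and at 9.79, 10.78 and 10.47 with aphidicolin, with overlapping groups and a difference of -0.13 ± 0.30 (adjusted p = 0.762). Under 75th percentile scaling Atp5g1 was lower too (-1.49, adjusted p = 0.0011).

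In complex IV, paired isoforms had different outcomes, again with no test between the genes. Cox6b2 stood at 6.05, 6.29 and 6.80 without and 9.09, 9.22 and 9.40 with aphidicolin, a 7.26-fold rise (2.86 ± 0.22, adjusted p = 1.18e-05). Its broadly expressed partner Cox6b1 went from 11.91, 11.46 and 11.67 to 9.88, 10.47 and 11.15, a 2.27-fold fall (adjusted p = 0.0207). Cox6b1 lost its call without fertilized Aph+ replicate 1 (adjusted p = 0.0562), without fertilized Aph- replicate 1 (0.0737) or replicate 3 (0.0566), and as the mean of its probes (0.0726). Cox7a1 stood at 5.59, 5.05 and 5.25 without and 7.60, 9.42 and 8.03 with aphidicolin, an 8.32-fold rise (3.06 ± 0.47, adjusted p = 0.000589), while Cox7a2 differed by -0.86 ± 0.37 (adjusted p = 0.0885). Cox6b2 and Cox7a1 were also higher than in the oocyte on the same arrays, by 1.67 ± 0.32 and by 4.13 ± 0.66, the latter at least 6.40-fold. Cox6a1 differed by -0.24 ± 0.25 (adjusted p = 0.484), and its muscle form Cox6a2 was detected on 1 array only, fertilized Aph+ replicate 1. The rises of Cox6b2 and Cox7a1 over untreated embryos held under 75th percentile scaling (1.40 and 1.83), but that of Cox6b2 over the oocyte did not pass there (0.51, adjusted p = 0.458). A second Cox6b2 probe was never detected. Before background correction and scaling, the Cox6b2 intensity did not rise. It was 196, 192 and 292 without aphidicolin, 180, 236 and 216 with it, and 222 in the oocyte. That of Cox7a1 overlapped too, at 161, 121 and 146 without and 112, 261 and 122 with aphidicolin. Both rises were therefore relative to the other genes of these dim arrays.

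Ndufa2 and Ndufb2, accessory subunits of the matrix arm and the membrane arm of complex I, were the other members higher with aphidicolin. Ndufb2 stood at 8.07, 8.25 and 7.90 without and at 9.35, 9.51 and 9.50 with aphidicolin (1.38 ± 0.19, adjusted p = 0.000272). Ndufa2 went from 9.19, 9.23 and 9.18 to 9.68, 10.37 and 10.09 (0.84 ± 0.20, adjusted p = 0.00718). Neither pair of groups overlapped on this scale. Before background correction and scaling, both genes were lower with aphidicolin. Ndufb2 had intensities of 587, 532 and 542 without and 204, 274 and 228 with it. Those of Ndufa2 were 1181, 968 and 1167 without and 244, 470 and 331 with it. Both rises were therefore relative to the other genes of these dim arrays. Under 75th percentile scaling the differences became -0.08 and -0.55 and neither was called (adjusted p = 0.803 and 0.143).

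**Figure D3:**
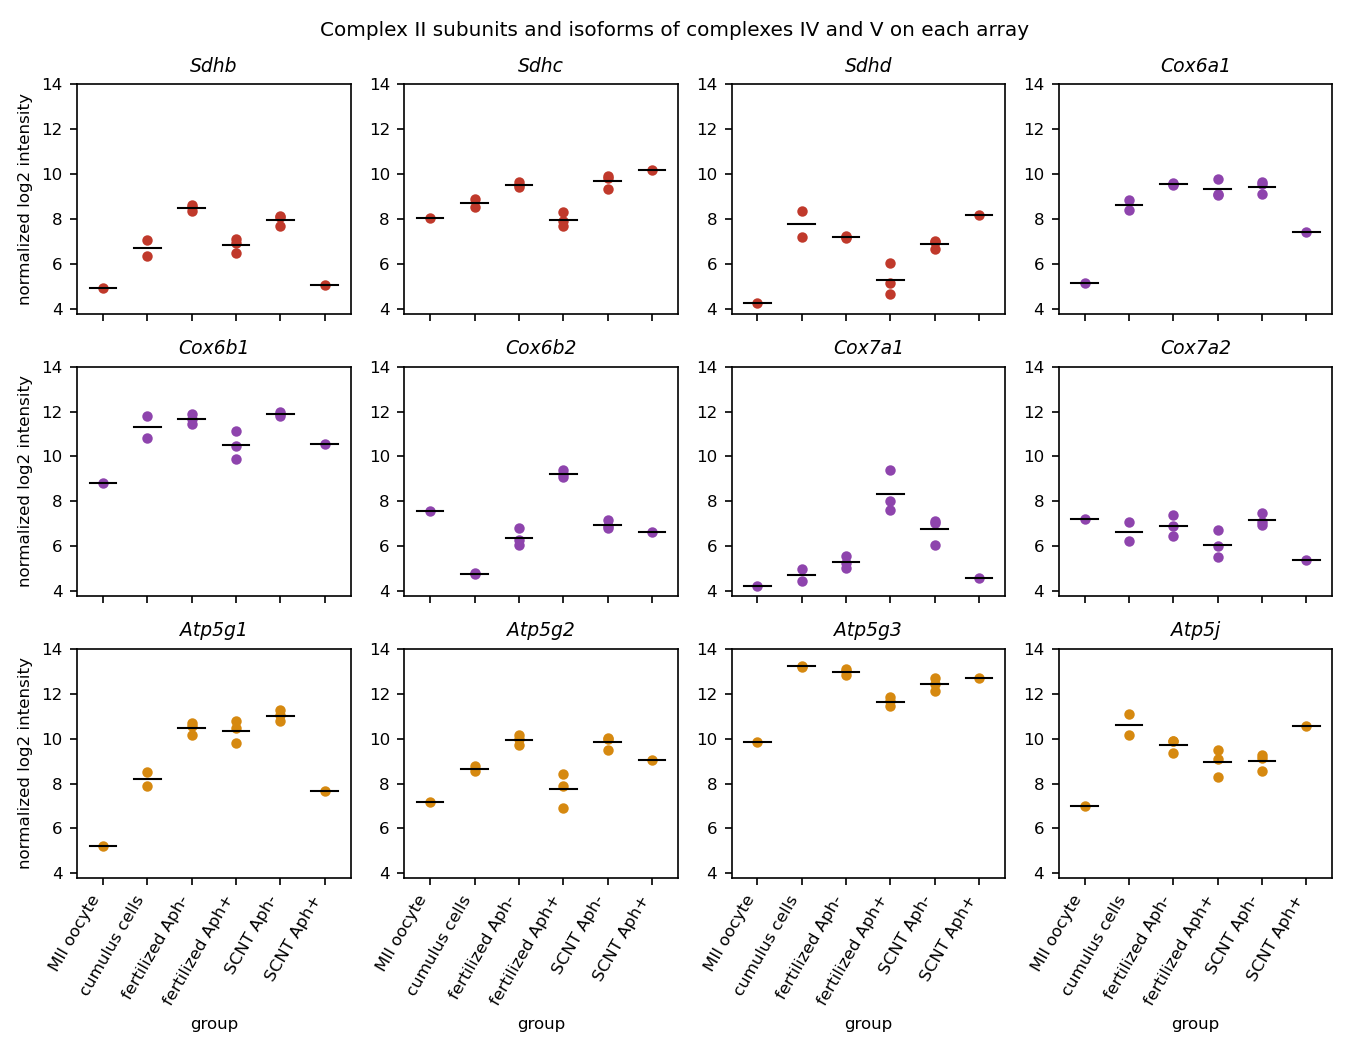
Normalized log2 intensity of 12 subunits on each array (points) in the 6 groups, with bars at the group means. Cox6b2 and Cox7a1 are highest in fertilized Aph+ embryos (9.09 to 9.40 and 7.60 to 9.42), and Sdhb and Sdhd part on the SCNT Aph+ array (5.10 and 8.20).

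After normalization, fertilized Aph+ embryos stood above the oocyte in 37 subunits and below it in none, where 18.4% of all genes were higher and 21.9% lower. These were 20 of 31 in complex I, 1 of 3 in II, 3 of 6 in III, 6 of 14 in IV and 7 of 14 in V, with a median difference of 1.67 (1.17 with undetected genes at their bounds). Ndufa2 was at least 20.7-fold higher, Atp5g1 at least 25.5-fold higher and Uqcr10 21.8-fold higher. Sdhc differed by -0.05 ± 0.33 (adjusted p = 0.939). This count depended on how the arrays were scaled. With 75th percentile scaling 13 were higher and 4 lower (9.28% and 24.3% of all genes), the median was 0.58 where that of all genes was 0.21, and Cox8a, at 0.57 ± 0.30 before, became lower (-1.33). A fit of these 4 arrays alone called 20, all higher.

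The single SCNT Aph+ array gave 37 subunits higher than the oocyte and none lower, with 16.8% of all genes higher and 16.4% lower. They were 18 of 31 in complex I, 2 of 3 in II, 5 of 6 in III, 4 of 14 in IV and 8 of 14 in V, with a median of 1.72 (1.50 with undetected genes at their bounds). This result did not hold under 75th percentile scaling, which called 1 higher and 7 lower (0.715% and 22.1% of all genes, median 0.46, all genes 0.23) and turned Cox8a, Ndufa4 and Sdhc to -2.91, -1.57 and -0.11. There is 1 array on each side, so the spread came from the other groups alone. The counts are relative to the other genes of each array, whose mean intensity was 89.8 here and 289 on the oocyte array. Before background correction and scaling, some subunits called higher were dimmer here than on the oocyte array and others brighter. Cox5b was 174 against 245 and Sdhc 181 against 297, while Ndufs7 was 168 against 139 and Atp5j 213 against 171. On the normalized scale the cumulus cell markers were as high on this array as in cumulus cells, whose own subunits exceeded the oocyte. Before normalization their summed intensity was 1645 on this array, 4745 and 19368 on the cumulus cell arrays and 1662 on the oocyte array. The part of these markers in the subunit counts was not tested.

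**Figure D4:**
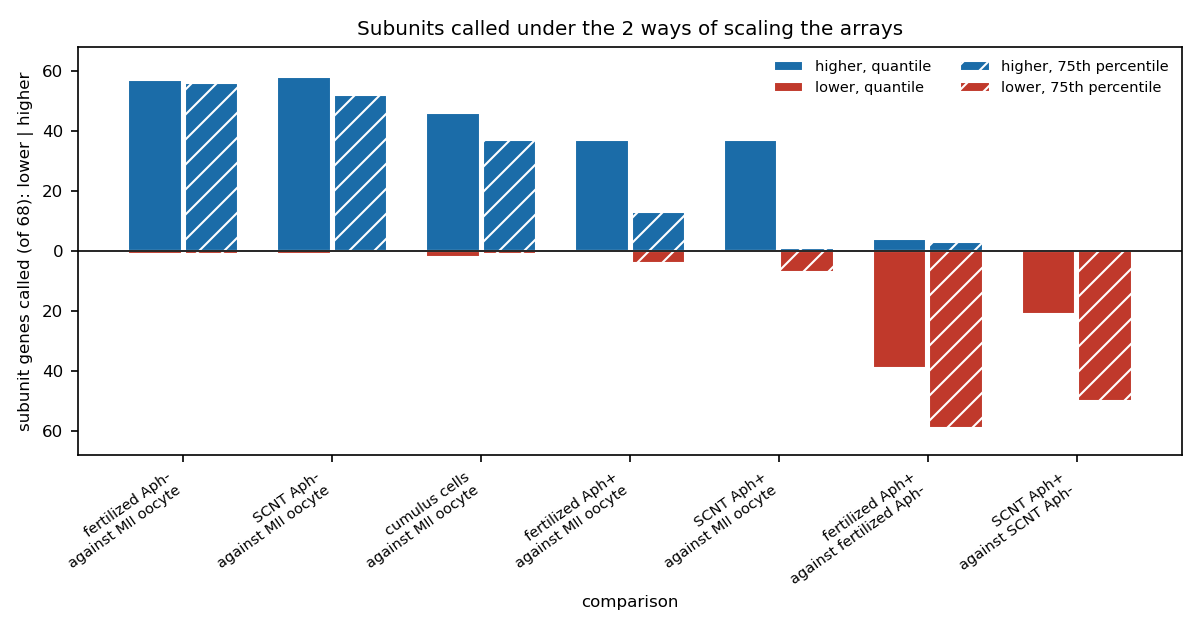
Number of the 68 subunits called higher (above the line) and lower (below it) in 7 comparisons, with quantile normalization (plain bars) and 75th percentile scaling (hatched bars). Fertilized Aph- embryos against the oocyte went from 57 higher to 56, whereas SCNT Aph+ against the oocyte went from 37 higher to 1 higher and 7 lower.

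Against SCNT Aph- embryos, the SCNT Aph+ array had 21 subunits lower and none higher, where 14.7% of all genes were lower and 13.7% higher. The lower ones were 10 of 31 in complex I, 1 of 3 in II, 3 of 6 in III, 4 of 14 in IV and 3 of 14 in V, and the median difference was -0.82 (-0.73 with undetected genes at their bounds) with -0.10 over all genes. Atp5g1 went from 10.77, 11.06 and 11.25 to 7.69, a 10.1-fold fall (-3.34 ± 0.43, adjusted p = 0.000433), and Atp5j2, a small subunit of the membrane sector, fell 5.18-fold. Cox6a1 went from 9.11, 9.67 and 9.59 to 7.44, a 4.05-fold fall (adjusted p = 0.00261). On the 2 cumulus cell arrays Atp5g1 stood at 8.50 and 7.87 and Cox6a1 at 8.86 and 8.42. Without SCNT Aph- replicate 3, 13 were called, all lower, where 12.2% of all genes were lower and 11.3% higher. With 75th percentile scaling 50 were called, all lower, where 24.6% of all genes were lower and 3.82% higher.

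In complex II, 1 of 3 genes passed on this array. Sdhb was not detected, at 5.10 against 7.72, 8.09 and 8.15 in SCNT Aph- embryos, at least 4.05-fold lower (adjusted p = 0.000388), and of its 2 other probes 1 gave -2.55 and 1 gave -0.09. Sdhc stood at 10.20 against 9.93, 9.86 and 9.37 (0.48 ± 0.33, adjusted p = 0.347), and Sdhd at 8.20 against 6.69, 7.01 and 7.04 (1.29 ± 0.52, adjusted p = 0.0986). On the normalized scale both anchors were above every SCNT Aph- array and did not pass. Before background correction and scaling, both were below every SCNT Aph- array. Sdhc had an intensity of 181 against 1483, 618 and 657, and Sdhd 98.9 against 215, 148 and 200. In cumulus cells Sdhb stood at 6.39 and 7.10, Sdhc at 8.92 and 8.55 and Sdhd at 8.36 and 7.22. Under 75th percentile scaling Sdhb (-1.88) and Sdhc (-1.59, adjusted p = 0.011) were both called lower, and Sdhd came to -0.22 (adjusted p = 0.626).

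The effect of aphidicolin after SCNT was then set against that after fertilization, as the difference of the differences. In 10 members it was higher after SCNT and in 9 lower, or 14.7% and 13.2% of the members. These shares were close to the 13.8% higher and 12.4% lower among all genes. Cox7a1 and Cox6b2 gave -5.20 ± 0.81 (adjusted p = 0.00166) and -3.18 ± 0.39 (adjusted p = 0.000515). On the normalized scale both rose with aphidicolin after fertilization, whereas the SCNT Aph+ array had Cox7a1 undetected at 4.61 and Cox6b2 at 6.65. Before background correction and scaling, their intensities overlapped between fertilized Aph- and Aph+ embryos. Cumulus cells had Cox7a1 at 4.44 and 4.98 and Cox6b2 at 4.77 and 4.81. Atp5g1 gave -3.21 ± 0.52 (adjusted p = 0.00207), and Ndufb2 -2.31 ± 0.32 (adjusted p = 0.000964). Sdhd gave 3.21 ± 0.64 (adjusted p = 0.0057) and Sdhc 2.03 ± 0.41 (adjusted p = 0.00587), and Sdhb gave -1.21 ± 0.44 (adjusted p = 0.0704). With 75th percentile scaling 6 were lower and none higher (4.81% and 1.59% of all genes), with Cox7a1, Cox6b2 and Atp5g1 among the 6, and Sdhd, Sdhc and Ndufb2 no longer passed.

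**Figure D5:**
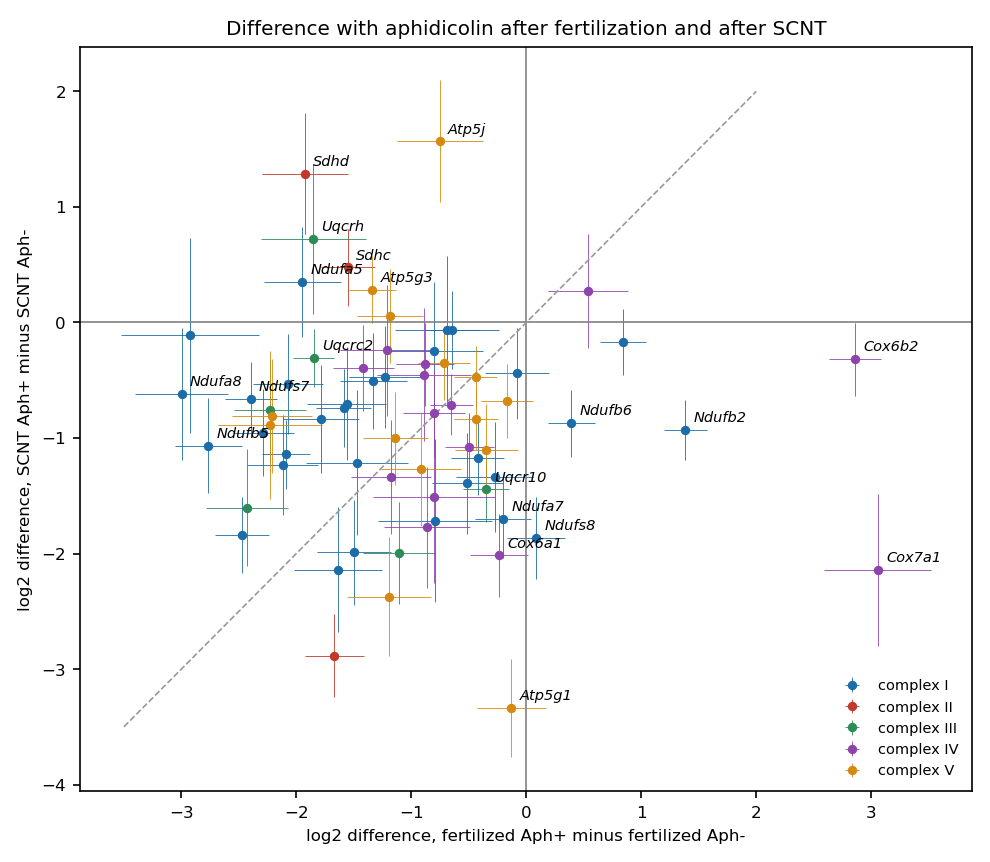
Log2 difference of Aph+ from Aph- embryos after fertilization (horizontal axis) and after SCNT (vertical axis) for each of the 68 subunits, with standard errors and the line of equal effects dashed. Names mark the 19 subunits whose effects differed. Among them are Cox6b2 and Cox7a1 at the right, with normalized differences of 2.86 and 3.06 after fertilization.

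Genes around the chain were counted from lists written from general knowledge, and those named here were picked after their values were seen. Cox4i1 and Cyc1, subunits of complexes IV and III that the name rule misses, were higher in fertilized Aph- embryos than in the oocyte, by 21.7-fold and, for Cyc1, undetected in the oocyte, by at least 25.9-fold. With aphidicolin Cyc1 fell by 3.62, and Cox4i1 differed by -0.10 (adjusted p = 0.766). Of 16 enzymes of the citric acid cycle and pyruvate dehydrogenase, 11 fell with aphidicolin after fertilization and none rose (median -2.10), among them Ogdh, Fh1 and Mdh2, whose products are succinyl-CoA, malate and oxaloacetate, by 3.68, 3.67 and 1.24. Of 9 electron carriers, phosphate and adenine nucleotide exchangers and outer membrane channels, 8 fell and none rose, and the carrier Slc25a5 fell by 2.79. Of 43 assembly factors, 16 fell and 3 rose (median -0.56). Of 15 regulators of mitochondrial gene expression, 5 fell and 3 rose: Gabpa and Gabpb1, the subunits of the ETS factor GABP, rose by 1.56 and 1.42 and Tfb2m, a mitochondrial transcription factor, by 2.01, while Tfam, which packages mitochondrial DNA, fell by 1.06 and Nrf1 differed by 0.51 (adjusted p = 0.456). These shares stood beside 25.1% lower and 19.1% higher among all genes. On the SCNT Aph+ array against SCNT Aph-, 6 of the 16 citric acid cycle genes were lower and 1 higher (median -0.84), and 1 of the 9 carriers and channels was lower and 1 higher (0.43). Of the assembly factors 13 were lower and 4 higher (-0.87), and of the regulators 1 was lower and none higher (0.12), beside 14.7% lower and 13.7% higher among all genes. By the test of the difference between both effects of aphidicolin, SCNT less fertilized, 7 citric acid cycle genes were higher and 1 lower, 6 carriers and channels higher and none lower, 6 assembly factors higher and 5 lower, and 1 regulator higher and 2 lower, beside 13.8% higher and 12.4% lower among all genes.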

How the data were processed

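Transcripts of 13 pools were measured on Illumina mouse bead arrays. The deposited intensity values are mean bead brightness per probe, which the authors summarised with BeadStudio 3.2 without background subtraction or normalization. The deposited detection p-value is the fraction of negative controls with more signal than the probe, on each array. The authors also deposited log2 values that share one distribution across arrays. Their tools are given as BeadStudio, lumi and RMA with no order, and these values served only as an alternative. The labels and the methods differ on mouse strain, RNA amplification and the fertilization protocol, and which applies to these arrays was not settled.

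Intensities were background-corrected and quantile normalized with neqc (offset 16) of limma 3.58.1 in R 4.3.3, with the detection p-values in place of control probes. A probe entered if its detection p fell under 0.01 on any 1 array, and the brightest probe stood for a gene. One lmFit and eBayes model of the 6 groups (13 arrays, 7 residual degrees of freedom) gave each contrast, with Benjamini-Hochberg adjustment over 9787 genes and a threshold of 0.05, plus a 2-fold difference against the oocyte. The code was tested on simulated data. A gene undetected on every array of a group has only a bound there: the bright group's mean was set against the lowest detected signal of each array, or the gene's own signal where higher, and is given as at least N-fold. The number of arrays limits the precision.

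Members and lists were chosen with earlier results of these data known. Members were named if they were among the 2 largest called differences of a complex in a contrast, a complex II subunit, one of an isoform pair, or called against most of their complex. Others were chosen after their values were seen. The alternatives were the deposited log2 values, no background correction, 75th percentile scaling, other detection filters, the mean of a gene's probes, only the arrays compared, a block for the sample type in the labels, a robust variance trend, and each array left out in turn. Promoter windows came from RefSeq.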

Additional observations from a re-analysis of the deposited data

Results flagged for a closer look

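The effect of aphidicolin differed between SCNT and fertilized embryos in 19 subunits by the test of the difference itself (limma, all adjusted p under 0.05). The values are the Aph+ minus Aph- log2 difference after SCNT less that after fertilization, and the SCNT side rests on 1 Aph+ array, on which cumulus cell markers were detected. In complex I the value was positive for Ndufa5 (2.30), Ndufa8 (2.38), Ndufb5 (1.70) and Ndufs7 (1.73), and negative for Ndufa7 (-1.49), Ndufb2 (-2.31), Ndufb6 (-1.26) and Ndufs8 (-1.95). The probe used for Ndufa8 gave -3.00 after fertilization and -0.62 after SCNT. Its second probe, detected on 8 arrays, gave -3.08 and -2.18, which lie closer together. In complex II it was 2.03 for Sdhc and 3.21 for Sdhd. In complex III it was 2.58 for Uqcrh, 1.54 for Uqcrc2 and -1.10 for Uqcr10. In complex IV it was -5.20 for Cox7a1, -3.18 for Cox6b2 and -1.78 for Cox6a1. In complex V it was -3.21 for Atp5g1, 1.62 for Atp5g3 and 2.32 for Atp5j. Of these 19, 10 were positive and 9 negative, or 14.7% and 13.2% of the 68 subunits. These shares were close to the 13.8% positive and 12.4% negative among all genes, so the count is not particular to the subunits. Under 75th percentile scaling 6 subunits were called, all negative, 5 of them among the 19 (Ndufb6, Uqcr10, Cox6b2, Cox7a1 and Atp5g1), where 1.59% of all genes were positive and 4.81% negative. None of the 10 positive values was then called, with Sdhd at 1.32 (adjusted p = 0.0828) and Sdhc at 1.09 (adjusted p = 0.312). When each array was left out in turn, other than the only SCNT Aph+ and oocyte arrays, 12 of the 19 kept their call every time and 7 lost it at least once. Ndufa8 and Ndufb5 lost it without any fertilized Aph- array or SCNT Aph- replicate 1 or 3 (adjusted p up to 0.0677 and 0.0689). Uqcrh lost it without any array of those groups (up to 0.0816), and Uqcr10 without any of them or fertilized Aph+ replicate 3 (up to 0.0858). Atp5j lost it without SCNT Aph- replicate 2 or fertilized Aph- replicate 2 or 3 (up to 0.0584), Ndufa7 without SCNT Aph- replicate 2 or 3 or fertilized Aph- replicate 1 (up to 0.0573), and Ndufb6 without SCNT Aph- replicate 3 or fertilized Aph- replicate 1 or 3 (up to 0.0599).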

How the results depend on the processing

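Of 194 named differences 120 were called, and 66 of these kept direction and call under all 20 alternatives. Scaling to the 75th percentile moved most: 17 subunits were then called for fertilized Aph+ against the oocyte, 8 for SCNT Aph+ against the oocyte, 50 for SCNT Aph+ against SCNT Aph- and 6 for the difference between the effects of aphidicolin. Under it the median of all genes was between -0.53 (fertilized Aph- against the oocyte, 0.06 with quantile normalization) and 0.23 (SCNT Aph+ against the oocyte, 0.03). It also turned Ndufa2 (-0.55) and Ndufb2 (-0.08) in fertilized Aph+ against Aph-, Cox8a in fertilized Aph+ (-1.33) and SCNT Aph+ (-2.91), Ndufa4 (-1.57) and Sdhc (-0.11) in SCNT Aph+ against the oocyte, and Atp5g3 (-1.45) and Sdhc (-1.59) in SCNT Aph+ against SCNT Aph-. The cause was not tested. Fitting only the arrays compared, with fewer samples, called 1 subunit for SCNT Aph- against fertilized Aph-, 20 for fertilized Aph+ and 29 for cumulus cells against the oocyte, and 35 for SCNT Aph+ against SCNT Aph-. SCNT Aph+ against the oocyte could not be fitted that way, with no residual degrees of freedom. Leaving out each array in turn, other than the only ones of the oocyte and SCNT Aph+ groups, gave 56 to 62 calls for fertilized Aph-, 56 to 61 for SCNT Aph-, 44 to 52 for cumulus cells, 36 to 41 for fertilized Aph+ and 35 to 43 for SCNT Aph+ against the oocyte. It gave 34 to 45 for fertilized Aph+ against Aph-, 0 for SCNT Aph- against fertilized Aph-, 13 to 28 for SCNT Aph+ against SCNT Aph- (13 without SCNT Aph- replicate 3) and 13 to 25 for the difference between effects. With a block for the sample type in the labels, SCNT Aph+ against SCNT Aph- had 14 calls in place of 21. No paired analysis was possible because the labels give every embryo array the same replicate number, so the block used the sample type instead. The Aph+ arrays were dim, so undetected genes there have only bounds.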
